A study of Mus musculus with 12 samples.

Results

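Transcripts of 10 genes of the Atf4 amino acid stress pathway were followed in 12 single cultured cardiac progenitor cells (CPCs). The genes were Atf4, Asns, Trib3, Chac1, Ddit3, Ddit4, Sesn2, Phgdh, Psat1 and Shmt2, chosen by name and not by level. All 10 were present among the 21729 genes of the count table. The CPCs were c-Kit+ cells depleted of blood lineages and sorted with magnetic beads from the non-myocyte fraction of hearts of FVB female mice aged 12 weeks. Cells of a pair of hearts were pooled for culture on gelatin in medium with serum, B27, N2, insulin-transferrin-selenium, L-glutamine and the factors LIF, bFGF and EGF, and were passaged 5 times. All 12 cells belong to 1 group, cultured CPCs, and the labels tie no cell to a heart or a dish. Neither fresh CPCs nor a culture starved of amino acids was analysed here, so no condition could be compared, and the spread over cells is a description without a test.

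Atf4 is a basic leucine zipper transcription factor at the centre of the integrated stress response. When amino acids run short, or when protein folding or haem supply fails, eIF2 kinases phosphorylate the translation factor eIF2, most protein synthesis slows, and the Atf4 message is translated more efficiently because of short upstream reading frames. Atf4 activity is therefore set largely by translation, which messenger RNA does not show. Its targets make amino acids (Asns, Phgdh, Psat1, Shmt2), restrain growth signalling (Ddit4, Sesn2), feed back on Atf4 itself (Trib3), break down glutathione (Chac1) or carry the response towards cell death (Ddit3, also known as Chop).

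Total counts lay between 3453708 and 5690184 per cell. The libraries carry no molecular identifiers, so intervals below (exact 95% Poisson) and limits from a count of 0 (3 counts, at most 0.869 CPM) cover counting error only. CPM is the count scaled to a total of 1000000 per cell. CPC3 and CPC10 were known to stand apart from earlier results of these data, so correlations are given with and without both. CPC10 had counts for 8 of 10 endothelial markers, with a sum of 9810 CPM, against 58.5 CPM with 6 of 10 counted in CPC3 and 0.629 to 44.8 CPM in the other 10 cells, and its Cldn5 and Vwf were at 0. CPC3 had the highest sum of haematopoietic markers, 160.0 CPM, against 2.99 to 76.3 CPM elsewhere, but only 4 of 10 were counted, as many as or fewer than in 6 other cells, and Ptprc, Cd14, Itgam, Cd3e, Cd79a and Cd48 were at 0. CPC11 had a sum of mural cell markers of 3737 CPM, nearly all of it Acta2 (3668 CPM), against 13.8 to 172 CPM in the other cells, with 3 of 10 counted and Myh11, Cnn1, Rgs5, Cspg4, Kcnj8, Abcc9 and Des at 0. Kit, the gene of the sorting receptor, had no counts in 11 cells and 21 counts in CPC10. Fibroblast markers summed to 218 CPM in CPC10 and to at least 709 CPM in every other cell. In CPC10, 5 of 10 were counted, and Dcn, Lum, Dpt, Tcf21 and Postn were at 0, as in CPC1, CPC2, CPC4, CPC8 and CPC11. The hearts were labelled female, yet the sum of 4 Y-linked genes was at least 9.76 CPM in each cell.

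The promoter sequences are shown because Atf4 binds with C/EBP partners to a composite site, the amino acid response element. Windows from 250 bases before to 50 after the RefSeq start (build GRCm38.p6) existed for all 10 genes. They were searched on both strands for TGATGNAA, which is the core of that element, for the cyclic AMP response element TGACGTCA and for the variant TGACGCAA. TGATGNAA was found for Asns, Trib3 and Chac1, which is 3 of 10 genes, against 4.51% of 27025 genes with a window. TGACGCAA was found for Chac1 (0.562% of all genes) and TGACGTCA for none of the 10 (2.03% of all genes). A further run, TGGTGCAAT, was picked by eye from the Trib3 and Psat1 sequences after they had been read, and occurs in 29 of 32851 windows. No match of 1 motif overlapped that of another. A match of letters is not a bound site. Each sequence reads 5′ to 3′ along the gene, with the matching letters in capitals; TTACATCA and TTGCATCA are TGATGNAA read on the opposite strand.
Asns, chr6:7693214-7693243, minus strand: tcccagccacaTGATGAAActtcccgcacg
Trib3, chr2:152344028-152344057, minus strand: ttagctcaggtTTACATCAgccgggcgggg
Trib3, chr2:152344061-152344120, minus strand: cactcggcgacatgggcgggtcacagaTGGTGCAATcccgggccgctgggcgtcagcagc
Psat1, chr19:15925160-15925219, minus strand: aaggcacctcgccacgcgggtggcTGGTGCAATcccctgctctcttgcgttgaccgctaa
Chac1, chr2:119350992-119351081, plus strand: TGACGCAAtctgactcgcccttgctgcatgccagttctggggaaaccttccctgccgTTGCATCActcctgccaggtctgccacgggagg

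The first question was whether cultured CPCs carry these transcripts at all. Of the 10 genes, 9 were counted in every cell, and 6 reached 10 CPM in every cell. Over the 14462 genes with a count in any cell, the shares were 53.1% and 32.3%. The exception was Sesn2, which was counted in 11 cells. Summed over the 10 genes, the level was a median of 1554 CPM, with a lowest value of 557 CPM in CPC3 and a highest of 2731 CPM in CPC2. CPC10 had the second lowest sum, 869 CPM. Phgdh alone held 9.60 to 53.7% of the sum, with a median of 29.0%.

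**Figure D1:**
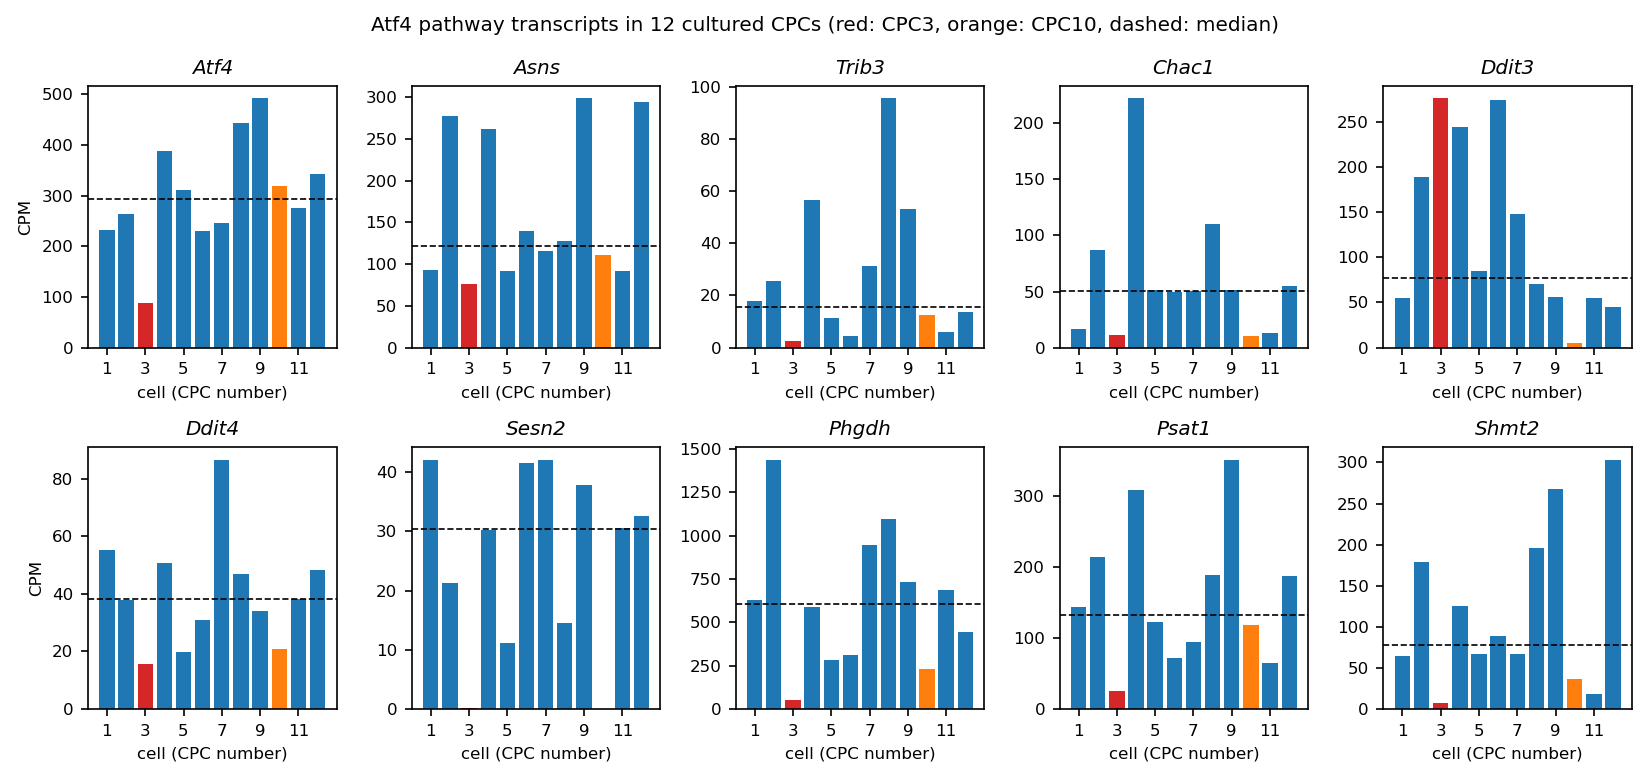
Level of each of the 10 genes (vertical axis, CPM, starting at 0) in each of 12 cells (horizontal axis, CPC number), with CPC3 in red, CPC10 in orange and the median over cells dashed. CPC3 is the lowest cell for Atf4, Asns, Trib3, Ddit4, Phgdh, Psat1 and Shmt2 and the highest for Ddit3, while the Sesn2 bars of CPC3 (0.264 CPM) and CPC10 (0 CPM) are too short to see.

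Atf4 (ENSMUSG00000042406.8, chromosome 15, 80255184 to 80257541, mm10, plus strand) had the lowest coefficient of variation of the 10 genes, 0.355 over the 12 cells. Its lowest value was 88.1 CPM in CPC3 (interval 78.9 to 98.0 CPM), its median was 294 CPM and its highest value was 492 CPM in CPC9. Only CPC3 stood low, since the other 11 cells lay between 230.1 and 492 CPM. In CPC10, Atf4 was at 318 CPM, above the median. The fold between the highest and lowest cell was 5.58 with all cells and 2.14 without CPC3 and CPC10.

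Asns (ENSMUSG00000029752.12, chromosome 6, 7675169 to 7693254, minus strand) encodes asparagine synthetase, which makes asparagine from aspartate and glutamine. It had a lowest value of 75.9 CPM in CPC3, a median of 122 CPM and a highest value of 299 CPM in CPC9. The cells fell into separate levels. CPC2, CPC4, CPC9 and CPC12 had 278, 262, 299 and 294 CPM, whereas the other 8 cells had at most 139 CPM. Of the 4 high cells, CPC2 lay below the median of Atf4, with 263 CPM of Atf4.

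Phgdh, Psat1 and Shmt2 code for enzymes on the route from glucose to serine and glycine. Phgdh (ENSMUSG00000053398.11, chromosome 3, 98313170 to 98339990, minus strand) catalyses the first step of serine synthesis. It ran from 53.5 CPM in CPC3 over a median of 609 CPM to 1438 CPM in CPC2, the highest value of any of the 10 genes. Phgdh was also high in CPC8 and CPC7, at 1096 and 948 CPM, and low in CPC10, at 234 CPM. A pseudogene named Phgdh-ps1 is annotated in GENCODE, and the authors kept uniquely mapped reads only, so the Phgdh level is uncertain by the reads shared with it.

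Psat1 (ENSMUSG00000024640.9, chromosome 19, 15904678 to 15947337, minus strand), the aminotransferase of the next step, had a lowest value of 26.1 CPM in CPC3, a median of 133 CPM and a highest value of 351 CPM in CPC9. CPC4 followed with 309 CPM. Shmt2 (ENSMUSG00000025403.5, chromosome 10, 127517123 to 127522444, minus strand), the mitochondrial enzyme that turns serine into glycine and a one-carbon unit, had a lowest value of 7.91 CPM in CPC3, a median of 78.1 CPM and a highest value of 303 CPM in CPC12. Its level fell to 18.8 CPM in CPC11 and 37.0 CPM in CPC10. The fold between the highest and lowest cell without CPC3 and CPC10 was 16.1 for Shmt2, 5.41 for Psat1 and 5.07 for Phgdh. A stretch of 32 exon bases of Shmt2 is shared with Ndufa4l2 on the opposite strand, and since the strand rule of the counting is not stated, reads there cannot be told apart.

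Trib3 and Chac1 showed wide ranges. Trib3 (ENSMUSG00000032715.9, chromosome 2, 152337422 to 152344032, minus strand) encodes a pseudokinase that binds Atf4 and Ddit3 products and dampens the response. It had a lowest value of 2.37 CPM in CPC3 (9 counts, interval 1.09 to 4.50 CPM), a median of 15.7 CPM and a highest value of 95.4 CPM in CPC8. CPC4 and CPC9 followed with 56.6 and 53.0 CPM. CPC6 was low as well, at 4.25 CPM (interval 2.43 to 6.90 CPM). Without CPC3 and CPC10 the fold between the highest and lowest cell was still 22.5.

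Chac1 (ENSMUSG00000027313.3, chromosome 2, 119351229 to 119354381, plus strand) encodes an enzyme that cleaves glutathione. It had a lowest value of 10.7 CPM in CPC10 (interval 8.11 to 13.9 CPM), a median of 50.7 CPM and a highest value of 222 CPM in CPC4 (interval 208 to 237 CPM). CPC8 was next at 110.4 CPM. CPC3, CPC11 and CPC1 were near CPC10, at 11.6, 13.2 and 16.2 CPM.

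Ddit3 (ENSMUSG00000025408.15, chromosome 10, 127290774 to 127296288, plus strand) did not share the order of the other genes. Its lowest value was 5.07 CPM in CPC10 (27 counts, interval 3.34 to 7.38 CPM), its median was 77.5 CPM and its highest was 276 CPM in CPC3 (interval 259 to 293 CPM), the cell in which Atf4 was lowest. CPC6, CPC4 and CPC2 were also high, at 274, 244 and 189 CPM. The ratio of Ddit3 to Atf4 counts was 3.13 in CPC3 and 1.19 in CPC6. It was between 0.0159 and 0.717 in the other 10 cells, with CPC10 at the low end. Ddit3 shares 68 exon bases with Mars on the opposite strand and 13 with Gm4189, also on the opposite strand, where reads cannot be told apart. Mars, named here because of that overlap, was at 14.2 CPM in CPC3, its lowest value.

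Ddit4 and Sesn2 encode brakes on mTORC1, the kinase complex that drives growth when amino acids are plentiful. Ddit4 (ENSMUSG00000020108.4, chromosome 10, 59949669 to 59951834, minus strand) had a lowest value of 15.8 CPM in CPC3, a median of 38.1 CPM and a highest value of 86.5 CPM in CPC7. Sesn2 (ENSMUSG00000028893.8, chromosome 4, 132492032 to 132510501, minus strand), a leucine sensor, had a median of 30.3 CPM and a highest value of 42.0 CPM in CPC7. It had 0 counts in CPC10, which allows up to 0.563 CPM by the limit of 3 counts (upper bound of the interval 0.693 CPM), and 1 count in CPC3, or 0.264 CPM (interval 0.00668 to 1.47 CPM). The other 10 cells had 11.1 to 42.0 CPM. Against that limit of 3 counts, the highest cell was at least 74.6-fold above CPC10, and the fold among the 10 cells without CPC3 and CPC10 was 3.77. CPC3 and CPC10 shared the near absence of Sesn2 but lay at opposite ends of Ddit3.

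Levels of different genes were compared per length, as CPM per kilobase of annotated exon. Phgdh was highest with a median of 245, followed by Atf4 with 125. Next came Ddit3, Asns, Psat1, Chac1, Shmt2 and Ddit4, with medians of 45.2, 44.5, 31.3, 31.0, 25.1 and 21.7. Sesn2 and Trib3 were lowest, with 8.73 and 7.38. Neighbours in this order were not all separated. Ddit4 lay above Sesn2 in 12 of 12 cells, also when exons of protein-coding transcripts alone were used. Asns lay above Psat1 in 12 cells, or in 9 with protein-coding transcripts alone. Phgdh exceeded Atf4 in 9 cells, and Atf4 exceeded Ddit3 in 10, or in 7 with protein-coding transcripts alone. Ddit3 exceeded Asns in 6 cells, Psat1 exceeded Chac1 in 5 and Chac1 exceeded Shmt2 in 7, or in 9, 9 and 4 with protein-coding transcripts alone. Shmt2 exceeded Ddit4 in 8 cells and Sesn2 exceeded Trib3 in 4 with either length, so none of these pairs had a fixed order. With protein-coding transcripts alone, the median of Ddit3 was 87.0 in place of 45.2, and the medians of Chac1 and Shmt2 changed places.

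**Figure D2:**
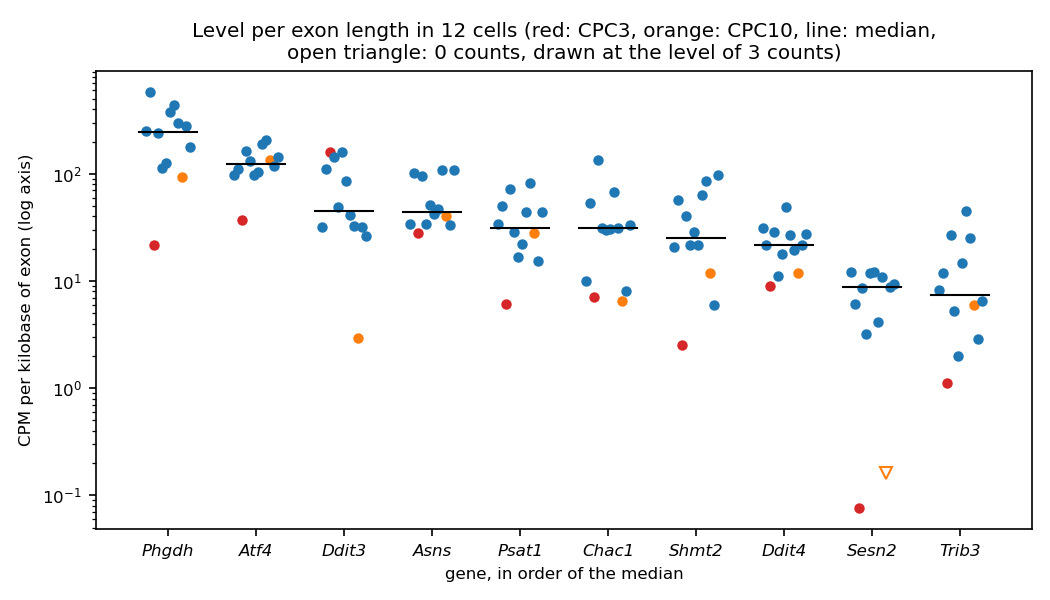
Level per length (vertical log axis, CPM per kilobase of exon) of the 10 genes in order of their medians (horizontal axis); points are the 12 cells, with CPC3 red, CPC10 orange, and lines are medians. Phgdh (median 245) and Atf4 (median 125) lie highest, and the open triangle places the Sesn2 count of 0 in CPC10 at the level of 3 counts.

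How far the genes varied was measured against genes of like abundance, as log10 of the squared coefficient of variation minus a running median over genes ordered by mean level. This residual was above 0 for 8 of the 10 genes, beside 49.8% of 9701 genes tested, and its median over the 10 was 0.46, against 0.00 over all genes. It was largest for Chac1 (0.65), Shmt2 (0.63) and Ddit3 (0.59), and was also high for Phgdh (0.52) and Trib3 (0.52). Atf4 (-0.03) and Ddit4 (-0.08) varied about as much as genes of like abundance. The other 3 were Psat1 (0.41), Asns (0.28) and Sesn2 (0.05).

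Next it was asked whether the genes rise and fall together. Pearson's r of log2(CPM + 1) was computed over the 12 cells, which belong to 1 group and are not tied to separate animals or cultures, so no p is attached. For the 45 pairs r lay between -0.39 and 0.87, and its median was 0.55. An r over 0.5 was reached by 26 pairs, beside 7.99% of the pairs among all 9701 genes, whose median was 0.03. The closest pairs were Psat1 with Shmt2 (0.87), Atf4 with Psat1 (0.86), Trib3 with Psat1 (0.84) and Asns with Shmt2 (0.82). This closeness was less when CPC3 and CPC10 were both left out. The median of the 45 pairs was 0.41 without CPC3 alone, 0.60 without CPC10 alone and 0.17 without both. Without both, 16 of the 26 pairs were still over 0.5, and Chac1 with Ddit3 was now over it too, beside 9.64% of all pairs of genes.

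The loss of similarity was uneven. Psat1 with Shmt2 stayed at 0.78, Atf4 with Psat1 at 0.73, Trib3 with Psat1 at 0.76 and Asns with Shmt2 at 0.80. Phgdh with Atf4 went from 0.68 to 0.14 and Phgdh with Shmt2 from 0.66 to 0.17. Sesn2 with Phgdh went from 0.72 to 0.01, and Sesn2 with Chac1 from 0.51 to -0.33. Ddit4 with Sesn2 (0.75, then 0.54) and Ddit4 with Phgdh (0.76, then 0.53) kept values over 0.5. Leaving aside Ddit3, Ddit4 and Sesn2, a choice made after the values were seen, the remaining 21 pairs had r between 0.48 and 0.87 over 12 cells, and between 0.14 and 0.80 over 10.

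**Figure D3:**
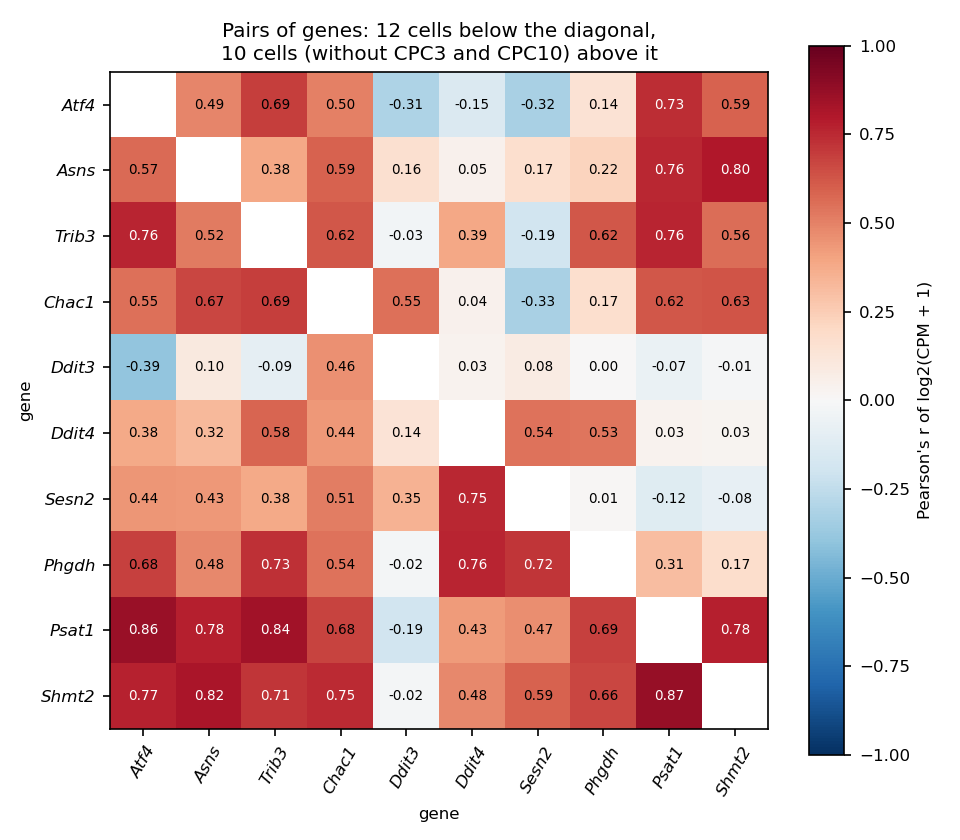
Pearson's r of log2(CPM + 1) for the 45 pairs of the 10 genes (both axes), over 12 cells below the diagonal and over 10 cells without CPC3 and CPC10 above it; red is positive and blue negative. Ddit3 forms the pale row (Atf4 with Ddit3 is -0.39), and the Sesn2 and Phgdh cells are darker below the diagonal than above it.

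Over the 12 cells Ddit3 had the lowest values in these pairs. Its median r with the other 9 genes was -0.02, from -0.39 with Atf4 to 0.46 with Chac1. Without CPC3 and CPC10, Ddit3 had r of -0.31 with Atf4 and 0.55 with Chac1. Under 4 other scalings and depths its r with Atf4 lay between -0.52 and -0.38. All 5 pairs with r below 0 over the 12 cells involved Ddit3. Without CPC3 and CPC10, 10 pairs were below 0, of which 4 involved Ddit3 and 5 involved Sesn2. The r of Sesn2 with the score of the other 9 genes was then -0.03 and that of Ddit3 0.09.

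**Figure D4:**
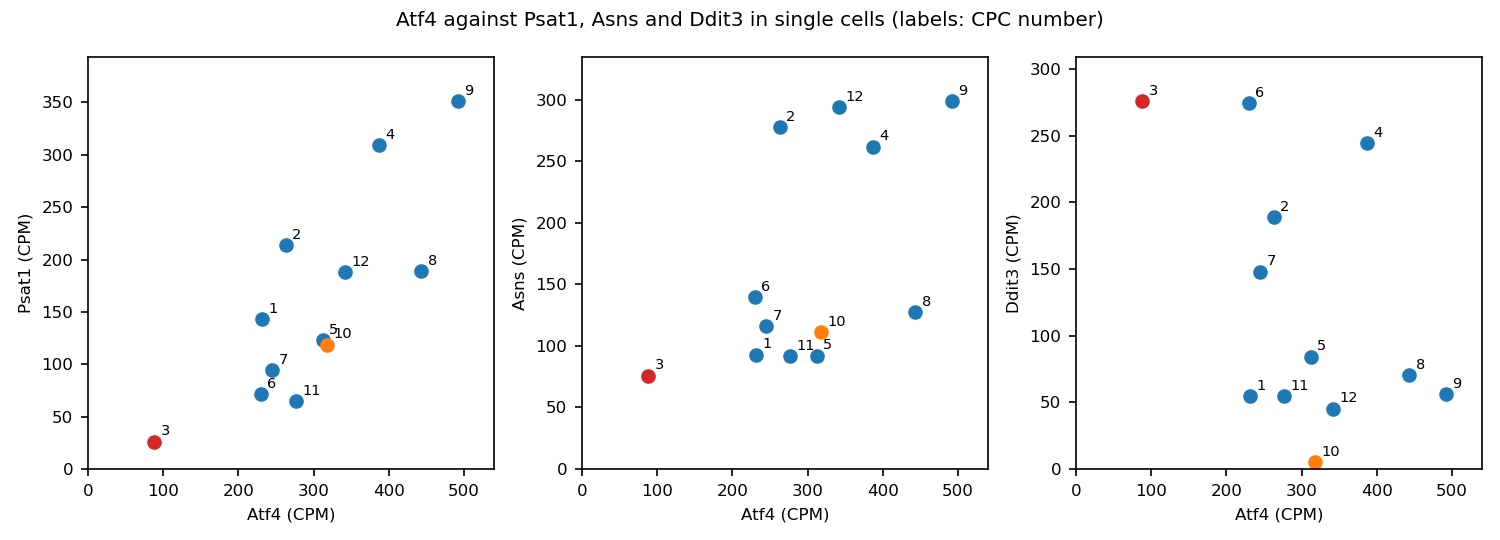
Atf4 (horizontal axis, CPM) against Psat1, Asns and Ddit3 (vertical axes, CPM, all from 0) in 12 cells labelled by CPC number, with CPC3 red and CPC10 orange. Psat1 is lowest in CPC3 (26.1 CPM) and highest in CPC9 (351 CPM), the end cells for Atf4, with an uneven course between them, Asns splits into 4 high and 8 low cells, and Ddit3 is highest in CPC3, where Atf4 is 88.1 CPM.

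To rank the cells, the levels of the 10 genes on the scale log2(CPM + 1) were expressed in SDs from each gene's mean and averaged. This score was highest in CPC4 (0.88), CPC9 (0.71), CPC8 (0.61) and CPC2 (0.60). It was lowest in CPC3 (-1.61) and CPC10 (-0.93). CPC4, CPC8 and CPC9 were above the median of a gene for 8 of the 10 genes each, whereas CPC3 and CPC10 were so for 1 gene each, Ddit3 and Atf4. In CPC3, 9 of the 10 genes lay below the lowest of the 10 cells other than CPC3 and CPC10, beside 16.9% of 8396 genes at a mean of 10 CPM or more in those cells. In CPC10 this was true of 4 genes (Chac1, Ddit3, Sesn2 and Phgdh), beside 19.6%. Whether the marker levels of CPC3 and CPC10 given above bear on these low values was not tested. The number of detected genes splits the cells into 5 with at most 10181 and 7 with at least 11216, and scores overlapped between them, from -0.93 to 0.61 in the former and from -1.61 to 0.88 in the latter.

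The score was then set beside other parts of the pathway, as Pearson's r over the 12 cells for genes at a mean of 10 CPM or more that were counted in at least 10 cells. Each r or count below is followed, after the word then, by its value over the 10 cells without CPC3 and CPC10. Among 8193 such genes, an r over 0.5 was found for 12.8%, then 7.02%, and an r below 0 for 38.9%, then 51.8%. Their median r, with the 10 genes included, was 0.11, then -0.02. Cytosolic aminoacyl-tRNA synthetases, which load amino acids onto transfer RNA, were all at 10 CPM or more in every cell. Of these 20 genes, 11, then 16, had r over 0.5, and 1, then 1, had r below 0, with a median of 0.57, then 0.64. Gars (0.88, then 0.64) was closest, at 149 CPM in CPC3, a median of 391 CPM and 583 CPM in CPC12. Hars (0.81, then 0.86) and Cars (0.78, then 0.76) followed. Nars was the most abundant, with a median of 489 CPM (0.45, then 0.70), and Rars had a median of 277 CPM (0.24, then 0.58).

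Of 18 other enzymes of serine, glycine, proline and one-carbon metabolism, 10, then 7, had r over 0.5, and 0, then 3, had r below 0. Their median was 0.54, then 0.40. Mthfd2, the mitochondrial folate enzyme that acts after Shmt2, was at 1.13 CPM in CPC10, a median of 106 CPM and 207 CPM in CPC2 (0.75, then 0.68). Glul (0.74, then 0.38) and Bcat1 (0.72, then 0.67) had the next values, and Bcat1, a branched-chain aminotransferase, was at 3.43 CPM in CPC3 and 272 CPM in CPC9. Got1, among the most abundant of the list, had a median of 112 CPM (0.14, then -0.06). Tyms, the thymidylate synthase of dividing cells, had a median of 128 CPM (0.59, then -0.04).

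Amino acid transporters passed the filter for 8 of 13 genes. Their median r was 0.42, then 0.39, with 2, then 4, over 0.5 and 0, then 1, below 0. The former were Slc38a2 (0.79, then 0.71), a carrier of small neutral amino acids, and Slc3a2 (0.71, then 0.65), the heavy chain of several exchangers. Slc38a2 had a lowest value of 47.2 CPM in CPC3, a median of 171 CPM and a highest value of 363 CPM in CPC4. Slc3a2 had a lowest value of 118 CPM in CPC5, a median of 221 CPM and a highest value of 540.2 CPM in CPC9. Slc1a4 (0.46, then -0.29) and Slc7a1 (0.42, then 0.22) had medians of 19.7 and 49.1 CPM.

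A list of 15 genes held bZIP factors, some of which pair with Atf4, and Nupr1, a stress cofactor that is no bZIP factor. The filter was passed by 12 of the 15. Of these 12, 4, then 5, had r over 0.5 and 6, then 7, had r below 0, with a median of 0.08, then -0.24. Cebpg (0.83, then 0.83), a C/EBP partner of Atf4, had a lowest value of 6.57 CPM in CPC10 and a highest of 68.1 CPM in CPC4. Nupr1 (0.80, then 0.64), which also counts among the other stress targets below, reached 490 CPM in CPC12, and Atf1 followed (0.65, then 0.62). Nfe2l2, the regulator of antioxidant genes and the most abundant of this list with a median of 261 CPM, was on the negative side (-0.64, then -0.45). Cebpb was near 0 over 12 cells (-0.02, then -0.27).

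The 16 genes of the eIF2 kinase, eIF2, eIF2B and phosphatase list were counted in every cell. Their median r was 0.09, then 0.07, with 3, then 1, over 0.5 and 5, then 6, below 0, which is near the shares over all genes. Eif2s3x (0.74, then 0.47), Eif2b1 (0.62, then 0.38) and Ppp1r15b (0.57, then -0.05) were closest. Ppp1r15b, a phosphatase subunit that reverses eIF2 phosphorylation, was at 2.37 CPM in CPC3. The most abundant were Eif2s1 (0.48, then 0.87) and Eif2s2 (0.47, then 0.35), subunits of eIF2, with medians of 426 and 246 CPM, and Eif2b1. The 4 kinases, named here for their role and after their values were seen, had medians of 36.0 CPM for Eif2ak1 (0.40, then 0.19), 40.6 CPM for Eif2ak2 (-0.48, then -0.47), 12.8 CPM for Eif2ak3 (0.06, then -0.19) and 11.7 CPM for Eif2ak4 (-0.20, then -0.02). Eif2ak2, the kinase sensitive to double-stranded RNA, was highest in CPC3, at 156 CPM.

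Chaperones of the endoplasmic reticulum and other targets of Xbp1 or Atf6 answer unfolded protein by separate branches. Of 19 genes, 18, then 16, had r below 0 and 0, then 0, were over 0.5, with a median of -0.16, then -0.19. Without CPC11, 13 of the 19 were below 0, beside 38.3% of all genes. With the median of ratios and with TMM 18 were below 0, beside 51.0% and 48.6% of all genes. Hspa5, the central chaperone of this compartment, had a lowest value of 438 CPM in CPC1, a median of 932 CPM and a highest value of 2101 CPM in CPC10 (-0.52, then -0.42). Pdia3 (-0.40, then -0.14) and Calr (-0.06, then -0.32) had medians of 1810 and 825 CPM. Dnajc3 (-0.01, then -0.25) and Xbp1 (-0.02, then -0.22) were near 0 over 12 cells, and Hyou1 (0.16, then -0.06) was the 1 gene above 0 over 12 cells. In CPC3, where Ddit3 was highest, the sum of this list was 7065 CPM, against a median of 6545 CPM over the 12 cells. Single genes of the list went both ways in CPC3. Dnajb9 and Ern1 had their highest level of the 12 cells there, whereas Xbp1 and Manf had their lowest. Whether the high Ddit3 of CPC3 is tied to unfolded protein was not tested.

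**Figure D5:**
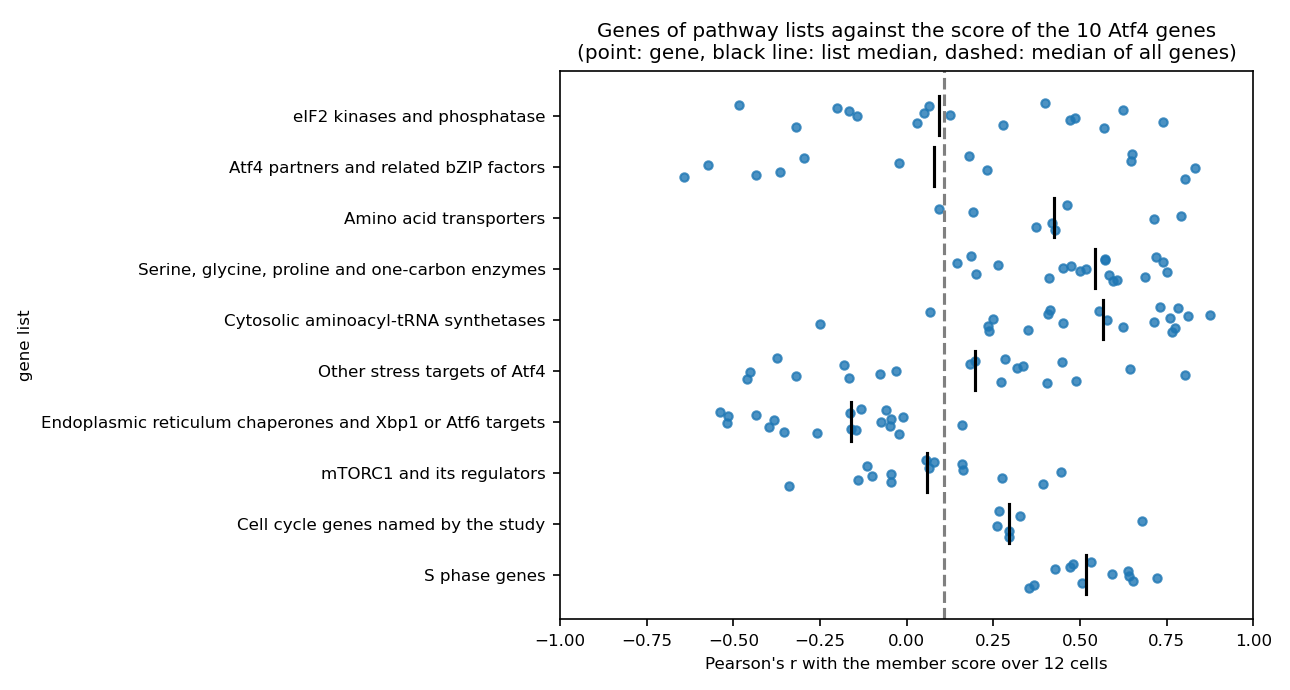
Pearson's r over 12 cells (horizontal axis) between each gene of 10 pathway lists (vertical axis) and the score of the 10 Atf4 genes; points are genes, black lines are list medians and the dashed line is the median of all genes, 0.11, all with CPC3 and CPC10 included. Synthetases (median 0.57) and serine and one-carbon enzymes (0.54) lie to the right and endoplasmic reticulum chaperones (-0.16) to the left.

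Among other stress targets of Atf4, 2, then 3, of 19 genes had r over 0.5 and 8, then 9, had r below 0, with a median of 0.20, then 0.17. The closest were Nupr1, Herpud1 (0.64, then 0.71) and Vegfa (0.49, then 0.17). The most abundant of this list were Sqstm1 (-0.17, then 0.23), Hmox1 (-0.03, then 0.48) and Cdkn1a (0.20, then -0.34), with medians of 1932, 1055 and 593 CPM. The genes of mTORC1 and its regulators had a median r of 0.06, then -0.08, with 0, then 0, of 14 over 0.5. The closest were Rps6kb1 (0.44, then -0.30), Tsc1 (0.39, then 0.02) and Rragc (0.27, then 0.06). Rheb, Lamtor1 and Rragc were the most abundant, with medians of 248, 236 and 206 CPM.

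Cell cycle transcripts were compared in the same way. Of 12 S phase genes, 7, then 2, had r over 0.5, with a median of 0.52, then 0.33. Mcm6 (0.72, then 0.56), Mcm7 (0.65, then 0.34) and Mcm5 (0.64, then 0.49) were highest. The most abundant were Rrm2 (0.37, then 0.30), Pcna (0.51, then 0.38) and Gins2 (0.47, then 0.32), with medians of 284, 155 and 101.4 CPM. The study picked out 7 mitotic genes with these cells among its data, so they are not an independent list. Of those, 6 passed the filter, with a median r of 0.30, then 0.20. Cdk1 (0.68, then 0.32) was highest, followed by Ccnb2 (0.33, then 0.39) and Cenpe (0.30, then 0.27). Cenpa (0.26, then 0.09), among the 3 most abundant, was lowest over 12 cells. The sum of the 7 mitotic genes had a median of 367 CPM, and the r of its log2(CPM + 1) with the score was 0.49, then 0.32. This sum was 390 CPM in CPC4, the cell with the highest score, and 3725 CPM in CPC9, the cell with the next score. The part of the cell cycle in the values of the 10 genes was not tested.

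Over all genes that passed the filter, those most like the score were Ndnl2 (r = 0.91), Rnf126 (0.91), Flrt2 (0.90), Uck2 (0.90) and Rps4x (0.90). Without CPC3 and CPC10 their r lay between 0.69 and 0.80. The genes most like Atf4 were Eif4b (0.92), Eef1g (0.91), Igf2bp2 (0.90), Wbp11 (0.90) and Serbp1 (0.89). Eif4b and Eef1g encode factors of translation initiation and elongation, and Eif4b had a lowest value of 38.5 CPM in CPC3, a median of 171 CPM and a highest value of 329 CPM in CPC9. All 10 of these genes were lowest in CPC3. Without CPC3 and CPC10 the r with Atf4 lay between 0.68 and 0.85, and it was 0.85 for Serbp1. Over all genes in this search the median r with Atf4 was 0.08.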

How the data were processed

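Single CPCs were picked by pipette, and their RNA was amplified with Smart-Seq v4 and made into Nextera XT libraries. The authors aligned reads with STAR 2.5.2b to mm10 and kept uniquely mapped reads. The program, annotation and strand rule that made the deposited counts per gene are not given in the sources used here. The deposited values are whole-number counts of 21729 genes in 12 cells. Depth ran from 3453708 to 5690184 counts per cell.

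Counts were scaled to CPM, and log2(CPM + 1) was used for Pearson's r. The dispersion residual and the pairs used genes at a mean of 5 CPM or more with a count in at least 3 cells, and the likeness search used a mean of 10 CPM or more and a count in at least 10 cells. Coordinates came from GENCODE vM21, in which 98.4% of symbols matched. The cells form 1 group with no named animal or culture, which counts as 1 sample, so no test was run. The 10 genes and the lists were chosen with earlier results of these data known. Named are the 10 genes, the 3 most abundant and the 3 with the highest r of each pathway list and the 5 most like the score or Atf4. Alternatives were other scalings (median of ratios, TMM of edgeR 4.0.16, no mitochondrial genes), thinning, other filters and pseudocounts, Spearman's rho, and cells left out. Scripts ran in Python 3.11.15 with scipy 1.17.1, pandas 2.3.3 and numpy 2.4.6, figures were drawn with matplotlib 3.10.9, and the scripts were tested on simulated data.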

Additional observations from a re-analysis of the deposited data

How the results depend on the processing

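Of 28 values under alternatives other than leaving out 1 cell, 27 moved by less than 1 SD, or for counts of genes by at most 1.5 times. The SD is that over single cells (summed level), genes (dispersion) or pairs (r), which is wide for a median, so staying within it says little of stability. The exception was the median r of the 45 pairs, which was 0.17 without CPC3 and CPC10 in place of 0.55; it was 0.49 with size factors by the median of ratios, 0.51 with TMM factors and 0.44 by Spearman. Leaving out 1 cell at a time gave a median r between 0.41 (without CPC3) and 0.62, a median summed level between 1345 and 1764 CPM, 9 to 10 genes counted in every cell and a median dispersion residual between 0.37 and 0.50. Of the 10 genes, 8 had 10 counts or more in every cell and 6 had 10 CPM or more. The scaling also shifts the level against which an r is read: the median r of all genes with the score was 0.11, and -0.01 with the median of ratios. Several list comparisons, the omission of CPC11 and the neighbours by protein-coding exons were added after seeing the data; without CPC11 the chaperones below 0 fell from 18 to 13. No paired analysis was possible because the cells form 1 group. With 12 cells of 1 group, the spread between cultures is not measured, and depth limits single values under about 1 CPM.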
